A study of Mus musculus with 33 samples.

Results

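Proteasome genes were examined in the livers of mice that carry an inducible gain-of-function form of Nlrp3 and of their wild-type counterparts. Nlrp3 encodes the sensor of the inflammasome, a protein complex of innate immune cells that matures interleukin-1 beta. The genes were those of the count table whose symbol starts with Psma, Psmb, Psmc, Psmd, Psme, Psmf or Psmg and a number, with at least 10 counts over all libraries, and 49 of the 19169 genes in the table met this rule. They hold 5 immunoproteasome genes (Psmb8, Psmb9, Psmb10, Psme1 and Psme2), 31 constitutive subunits and 13 others, which are assembly factors, other regulators and genes that share only the name. The 49 genes were chosen by name and not by their values.

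The 33 RNA-seq libraries of mouse liver fell into 4 groups, each kept on its diet for 6 weeks. The knock-in genotype is given as Nlrp3A350V/+CreT, called KI here, with recombination induced by tamoxifen; the labels name neither the promoter of the Cre nor the cells it is active in, nor any age. The KI group on the diet with GS-444217, an inhibitor of the stress kinase ASK1, had 10 libraries (5 female, 5 male), and the WT group on that diet had 8 (4 female, 4 male). The KI group on control chow with placebo had 5 libraries (1 female, 4 male), and the WT group on control chow had 10 (7 female, 3 male). Whether WT mice carried CreT or received tamoxifen is not given in the labels, and they do not state whether the libraries come from separate mice. The tests therefore measure spread among libraries, which may in part be technical. Counts per gene do not tell the knock-in allele of Nlrp3 from the normal one.

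The proteasome degrades proteins tagged with ubiquitin. Its barrel-shaped core is built of alpha and beta rings, with the catalytic sites on the standard subunits Psmb5, Psmb6 and Psmb7, and a regulatory cap of ATPases (Psmc genes) and non-ATPase subunits (Psmd genes) recognises, unfolds and feeds in the substrates. Interferon gamma induces a second set of catalytic subunits, Psmb8, Psmb9 and Psmb10, which replace Psmb5, Psmb6 and Psmb7 in newly assembled cores, together with Psme1 and Psme2, which form an alternative cap. This immunoproteasome is abundant in leukocytes, favours peptides that fit MHC class I molecules, and is low in resting hepatocytes.

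The libraries held between 28099676 and 40008118 counts. On the first principal component of all tested genes, which held 62.2% of the variance, 14 of the 15 KI libraries scored between 54.8 and 103, the 18 WT libraries scored between -74.1 and -45.9, and the female KI library 5 on the ASK1i diet scored -59.2, among the WT libraries and against its label. For 46 of the 49 proteasome genes that library lay nearer to the WT mean than to the mean of the other KI libraries. The main results with the ASK1i diet are therefore also given without that library. Titles carry an L code of unstated meaning, and no code holds both KI and WT libraries of control chow, so no value within a code can be given there, and a fit with the code rests on the groups that link the codes. The summed level of 16 leukocyte markers ranged from 1480 to 3680 CPM (read counts scaled to a common library size after TMM) in KI and from 251 to 556 CPM in WT on control chow. The summed level of 7 hepatocyte markers ranged from 35496 to 61099 CPM in KI and from 112924 to 137596 CPM in WT on that chow. Neither sum weighs its markers evenly. Alb made up most of the hepatocyte sum, with 3397651 counts in WT control library 1 against 204068 for Cps1, the next highest there. In KI the leukocyte sum was largely S100a8, S100a9, Cd74 and Clec4f. KI control library 2 held 38182 and 55276 counts of S100a8 and S100a9, against 3633 of Ptprc. In whole liver, fewer cells of a type and less RNA per cell cannot be told apart.

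Of the 5 immunoproteasome genes, 4 lie in neighbouring pairs. In mm10, Psmb9 (chromosome 17, 34182099 to 34187330) and Psmb8 (chromosome 17, 34198195 to 34201454) are 10864 bases apart within the MHC region, and Psme1 (chromosome 14, 55578494 to 55581527) and Psme2 (chromosome 14, 55587440 to 55591101) are 5912 bases apart. Psmb10 lies alone at positions 105935728 to 105938392 of chromosome 8. The windows from 250 bases before to 50 bases after the gene start are given for the 4 genes that were higher in KI livers on control chow, from RefSeq on GRCm38.p6. Capitals mark a match to the core of an interferon-stimulated response element (ISRE, searched as GAAA and GAAA with 2 bases between them) or to a gamma-activated site (GAS, searched as TTCNNNGAA), the sequences bound by interferon-activated factors. Letters were searched on both strands.
Psmb8 (chr17:34197945-34198244, plus strand): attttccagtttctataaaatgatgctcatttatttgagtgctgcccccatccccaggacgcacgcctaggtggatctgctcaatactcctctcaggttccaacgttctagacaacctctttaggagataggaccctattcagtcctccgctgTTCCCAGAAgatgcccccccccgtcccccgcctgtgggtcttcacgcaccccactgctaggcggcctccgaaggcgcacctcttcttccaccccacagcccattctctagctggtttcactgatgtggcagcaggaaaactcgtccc
Psmb9 (chr17:34187281-34187580, minus strand): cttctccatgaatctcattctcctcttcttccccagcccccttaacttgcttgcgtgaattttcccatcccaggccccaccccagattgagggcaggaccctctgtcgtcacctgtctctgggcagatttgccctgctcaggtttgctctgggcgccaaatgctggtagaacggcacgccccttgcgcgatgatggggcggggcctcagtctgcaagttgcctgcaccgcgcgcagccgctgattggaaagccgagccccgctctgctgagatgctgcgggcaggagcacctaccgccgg
Psmb10 (chr8:105938343-105938642, minus strand): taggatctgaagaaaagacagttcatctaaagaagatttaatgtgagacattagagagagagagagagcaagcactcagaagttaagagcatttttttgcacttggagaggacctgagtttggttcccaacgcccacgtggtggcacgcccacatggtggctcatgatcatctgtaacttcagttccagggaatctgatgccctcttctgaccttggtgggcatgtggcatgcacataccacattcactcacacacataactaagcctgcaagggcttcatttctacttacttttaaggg
Psme1 (chr14:55578244-55578543, plus strand): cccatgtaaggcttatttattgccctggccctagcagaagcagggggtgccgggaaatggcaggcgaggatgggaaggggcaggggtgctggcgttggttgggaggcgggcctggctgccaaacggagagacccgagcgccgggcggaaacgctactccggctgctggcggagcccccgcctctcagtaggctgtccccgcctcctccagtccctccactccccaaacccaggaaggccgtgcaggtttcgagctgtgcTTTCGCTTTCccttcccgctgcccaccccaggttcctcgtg

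The GAS match of Psmb8 reads the same pattern on either strand and begins 97 bases before the start. The ISRE core match of Psme1 is on the opposite strand and begins 9 bases after the start. Psmb9, Psmb10 and Psme2 held neither pattern in these letters. Among all 32851 RefSeq windows of the same length, 3.44% held the ISRE core and 8.30% held the GAS pattern. Among the 25 constitutive genes with a window, the ISRE core occurred in 2 (Psmb3 and Psmd4) and the GAS in 1 (Psmd2). The looser patterns of NF-kB (GGG and CC with 5 bases between them) and of antioxidant response elements (TGANNNNGC) occurred in 50.8% and 41.3% of all windows, and in 16 and 14 of the 25 constitutive genes. A match is a description of the letters and not a bound site.

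On control chow, the immunoproteasome and the constitutive proteasome moved in opposite directions in KI livers. Of the 5 immunoproteasome genes, 4 were higher and none lower, with a median log2 fold change of 0.60, whereas 27.8% of all 14934 genes tested were called higher. Of the 31 constitutive genes, 23 were lower and none higher, with a median of -0.29, whereas 28.9% of all genes tested were called lower. The median over all genes tested was -0.03. Calls are edgeR quasi-likelihood tests with a Benjamini-Hochberg adjusted p under 0.05 over all 14934 genes, with sex and title set in the model, and all 49 proteasome genes passed the filter on low counts.

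**Figure D1:**
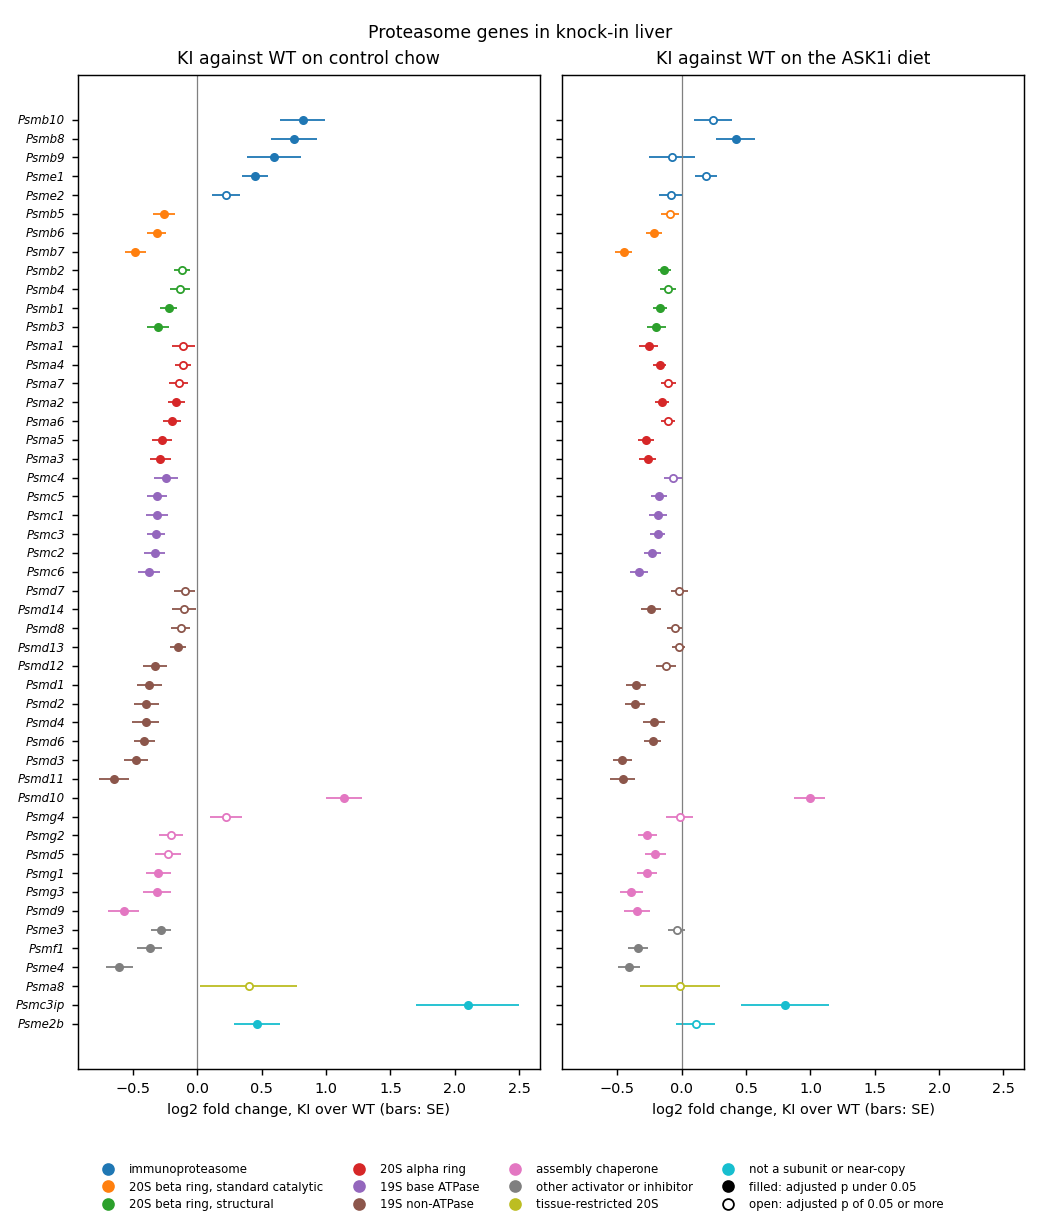
Log2 fold change of each of the 49 proteasome genes in KI against WT livers on either diet, ordered by role, with bars of 1 standard error and filled points for adjusted p under 0.05. All 31 constitutive genes lie below 0 on both diets, and the immunoproteasome genes, Psmd10 and Psmc3ip lie above it on control chow.

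Psmb8, the chymotrypsin-like catalytic subunit that replaces Psmb5, had 48.7, 54.8, 59.2, 38.1 and 42.6 CPM in the 5 KI livers on control chow, against 22.2 to 34.4 CPM with a median of 28.5 in the 10 WT livers. Every KI library was above every WT library. The fitted change was 0.75 on the log2 scale (SE 0.18, 1.68-fold, edgeR adjusted p = 0.000751). Psmb10, which replaces Psmb7 and cuts after basic residues, had 40.4, 47.7, 56.8, 44.1 and 37.5 CPM in KI livers, against 16.4 to 32.8 CPM with a median of 22.8 in WT livers. The groups again did not overlap, and the change of 0.82 (SE 0.17, 1.76-fold, edgeR adjusted p = 0.00023) was the largest fitted among the 5.

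Psmb9, which replaces Psmb6, had 16.4, 22.2, 22.8, 10.6 and 12.8 CPM in KI livers, against 7.12 to 13.7 CPM with a median of 11.2 in WT livers. The groups overlapped, with 3 of 5 KI libraries above every WT library. Its change of 0.60 (SE 0.21, 1.51-fold, edgeR adjusted p = 0.017) was no longer called without KI control library 2 (edgeR adjusted p = 0.0669) or library 3 (edgeR adjusted p = 0.0707).

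Psme1 and Psme2 encode the alpha and beta subunits of the interferon-inducible cap that opens the core without ATP. Psme1 had 81.7, 95.1, 96.0, 83.3 and 68.1 CPM in KI livers, against 50.4 to 66.6 CPM with a median of 59.5 in WT livers. Its groups did not overlap, and it rose by 0.44 on the log2 scale (SE 0.10, 1.36-fold, edgeR adjusted p = 0.000397). Psme2 had 59.9, 70.9, 80.6, 71.8 and 66.8 CPM in KI livers, against 41.5 to 70.9 CPM with a median of 55.8 in WT livers. All 5 KI libraries were above the WT mean, 2 were above every WT library, and the difference of 0.22 (SE 0.11) did not pass (edgeR adjusted p = 0.0828). Groups that did not overlap were thus found for 3 of the 5 genes, whereas 16.3% of all genes tested had every KI library above every WT library.

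**Figure D2:**
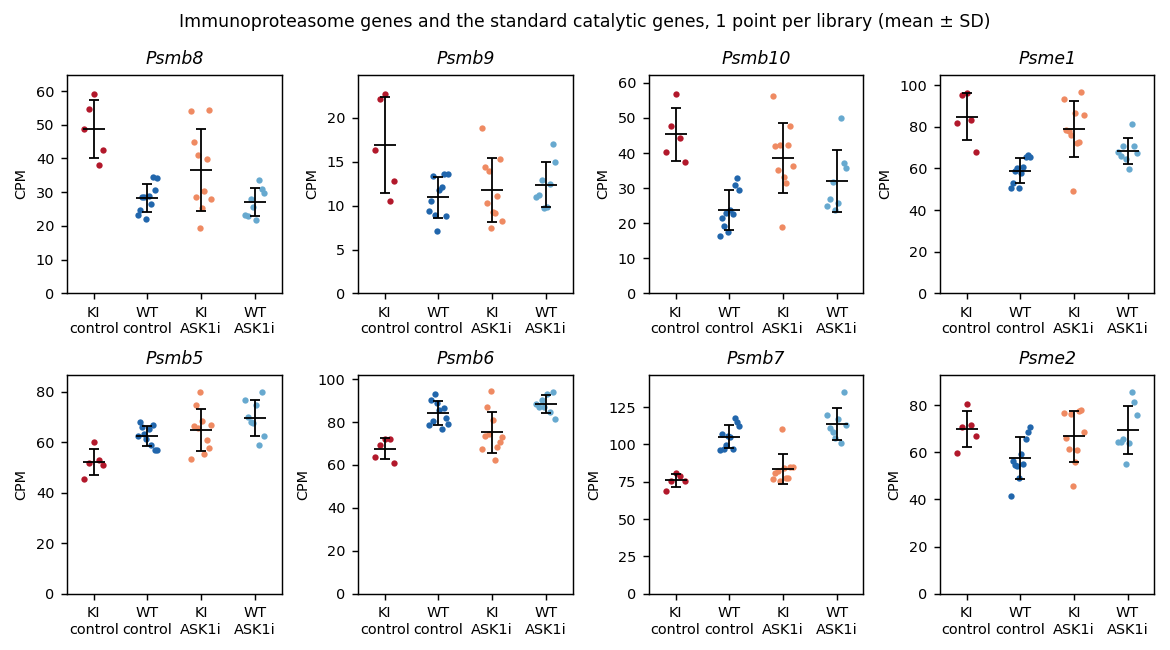
CPM of Psmb8, Psmb9, Psmb10, Psme1 and Psme2 and of the standard catalytic genes Psmb5, Psmb6 and Psmb7, with KI left of WT on each diet, 1 point per library and bars for the mean ± SD. On control chow KI libraries lie above WT for the immunoproteasome genes and below WT for the standard ones, with overlap for Psmb9, Psme2 and Psmb5.

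On control chow, leukocyte content, sex and L code moved with these levels. Ptprc, the pan-leukocyte antigen CD45, was 65.1 to 87.6 CPM in KI livers and 11.2 to 27.1 CPM in WT livers on control chow. There, 12 of the 16 leukocyte markers were higher and 2 lower, whereas 27.8% of all genes tested were called higher and 28.9% lower. No leukocyte marker was at 0 counts in any library, and the part of leukocytes in the immunoproteasome levels was not tested. Within WT livers on control chow, the 5 genes summed to 207.5 to 213.7 CPM in the 3 males and to 141 to 182 CPM in the 7 females. The males 1P and 2P also differ from all these females in title set and L code, so sex is not cleanly separate from them there. The 4 KI males on that chow ranged from 228 to 315.5 CPM and the 1 KI female was at 247 CPM. On the ASK1i diet the sexes overlapped. WT livers there ranged from 191 to 263 CPM in 4 males and from 179 to 237 CPM in 4 females. KI livers ranged from 210 to 299 CPM in 5 males and from 141 to 292 CPM in 5 females.

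In male libraries alone the log2 fold changes were 0.47 for Psmb8 (edgeR adjusted p = 0.185), 0.31 for Psmb9 (edgeR adjusted p = 0.452), 0.52 for Psmb10 (edgeR adjusted p = 0.117) and 0.35 for Psme1 (edgeR adjusted p = 0.0357), so only Psme1 of the 5 was called there. With the L code in place of the title set, none of the 5 was called on control chow. In that fit Psmb8 was at 0.26 (edgeR adjusted p = 0.457), Psmb9 at 0.20 (edgeR adjusted p = 0.663), Psmb10 at 0.08 (edgeR adjusted p = 0.788) and Psme1 at 0.15 (edgeR adjusted p = 0.411). Psme2 was at 0.11 among males alone (edgeR adjusted p = 0.535) and turned to -0.20 with the L code (edgeR adjusted p = 0.282). The part of the code in the difference on this chow was not tested within a code, since none holds both genotypes there.

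The standard catalytic subunits went the other way. Psmb7 had 69.1, 75.3, 81.0, 78.7 and 75.7 CPM in KI livers on control chow, against 96.0 to 118 CPM with a median of 105 in WT livers. No KI library reached the lowest WT library, and Psmb7 fell by 0.48 on the log2 scale (SE 0.08, 71.5% of the WT level, edgeR adjusted p = 1.11e-05). Psmb6, whose site cuts after acidic residues, had 63.9, 69.2, 72.2, 72.0 and 61.0 CPM in KI livers, against 76.7 to 93.1 CPM with a median of 83.7 in WT livers. It too showed no overlap, with a change of -0.32 (SE 0.07, edgeR adjusted p = 0.000494).

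Psmb5, the main chymotrypsin-like site, had 45.5, 51.8, 59.9, 52.8 and 50.9 CPM in KI livers, against 56.7 to 67.8 CPM with a median of 62.8 in WT livers. KI library 3 lay within the WT range and the other 4 below it. The change was -0.26 (SE 0.09, edgeR adjusted p = 0.0119) and was not called without KI control library 1 (edgeR adjusted p = 0.129). Psmb7 remained called among males alone (-0.54, edgeR adjusted p = 9.71e-05) and with the L code (-0.47, edgeR adjusted p = 0.00316). Psmb6 was called among males alone (-0.29, edgeR adjusted p = 0.0109) but not with the L code (-0.20, edgeR adjusted p = 0.159). Psmb5 was called neither among males alone (-0.17, edgeR adjusted p = 0.268) nor with the L code (-0.04, edgeR adjusted p = 0.837).

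The balance within each pair was expressed as the share of the immunoproteasome gene in the sum of both genes, per kilobase of transcript, a measure that library scaling cannot move. On control chow Psmb10 made up 34.4% ± 2.94 of the Psmb10 and Psmb7 sum in KI livers (SD, n = 5) and 16.4% ± 2.49 in WT livers (SD, n = 10). Psmb8 made up 33.9% ± 3.73 of the sum with Psmb5 in KI livers and 20.0% ± 2.75 in WT livers. Psmb9 made up 12.7% ± 3.34 of the sum with Psmb6 in KI livers and 7.17% ± 1.62 in WT livers. The lowest KI share exceeded the highest WT share for Psmb10 (30.5% against 20.1%) and for Psmb8 (28.5% against 24.9%), but not for Psmb9 (7.98% against 9.26%).

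On the ASK1i diet the Psmb10 share was 29.0% ± 6.90 in KI livers (SD, n = 10) and 19.8% ± 4.82 in WT livers (SD, n = 8). The Psmb8 share was 23.8% ± 7.69 in KI livers and 17.8% ± 3.36 in WT livers, and the Psmb9 share was 8.61% ± 2.92 in KI livers and 7.64% ± 1.46 in WT livers. Without KI library 5 the KI shares were 30.8% ± 4.38 for Psmb10, 25.1% ± 6.83 for Psmb8 and 9.08% ± 2.68 for Psmb9 (SD, n = 9). The ranges of KI and WT overlapped for all 3 pairs on this diet, with or without that library. The shares describe transcript levels, not the subunits assembled into proteasomes.

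**Figure D3:**
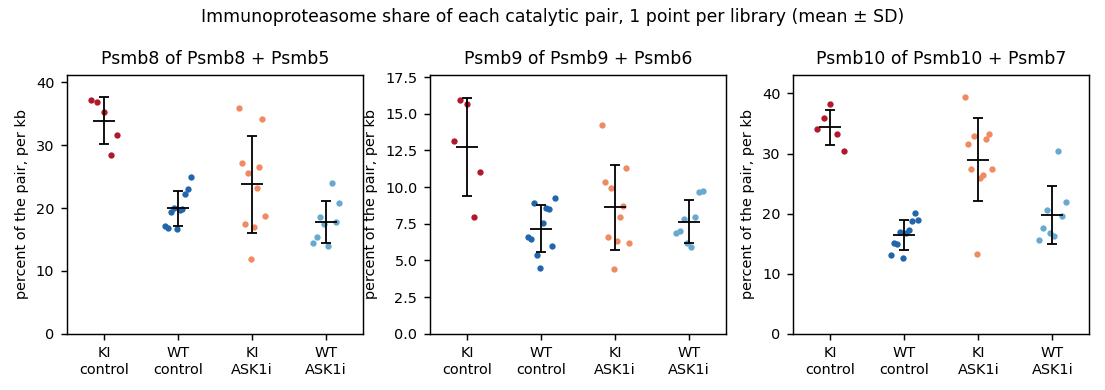
Share of the immunoproteasome gene in the summed level of each catalytic pair, in percent of CPM per kilobase, with KI left of WT on each diet, 1 point per library and bars for the mean ± SD. On control chow the KI shares of Psmb10 and Psmb8 lie wholly above the WT shares, and on the ASK1i diet the ranges overlap.

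Per kilobase, the WT means of Psmb8, Psmb9 and Psmb10 lay below those of all 31 constitutive genes on control chow. The assembly chaperones, at 5.82 to 14.6 CPM per kilobase, lay below Psmb8 and Psmb10 there. On the ASK1i diet the WT mean of Psmb10, at 24.4, was above that of Psma2, at 23.6. On control chow the group means of the 31 constitutive genes in WT ranged from 22.2 CPM per kilobase for Psma2, a subunit of the alpha ring, to 105 for Psmb6, with a median of 53.1. Psmb8 stood at 29.9 ± 5.30 CPM per kilobase in KI livers (SD, n = 5) and 17.3 ± 2.55 in WT livers (SD, n = 10). Psmb10 stood at 34.6 ± 5.72 in KI livers and 18.1 ± 4.32 in WT livers. The cap gene Psme1 stood at 76.3 in KI livers and 53.0 in WT livers, a level close to the constitutive median of WT, and Psmb9 at 12.5 in KI livers and 8.10 in WT livers was the lowest of the 5.

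All 31 constitutive genes had a negative fitted change on control chow, ranging from -0.65 to -0.10, and their KI levels were 63.7% to 93.4% of the WT levels with a median of 81.9%. In 26 of the 31, every KI library lay below the WT mean, a measure for which no share over all genes is given. In 12 of the 31, every KI library lay below every WT library, whereas 12.8% of all genes tested did so. Summed over the 31 genes the level was 2046 ± 96.7 CPM in KI livers (SD, n = 5) and 2494 ± 125 CPM in WT livers (SD, n = 10). With the L code in place of the title set 5 of the 31 were called lower (Psmb7, Psmc6, Psmd6, Psma2 and Psma6), in male libraries alone 14, and among the numbered titles alone 14. Shares over all genes are not given for these fits. The summed hepatocyte markers were lower in KI in the same libraries, and 4 of the 7 (Alb, Ttr, Cps1 and Apob) fell. Among all genes tested, 28.9% were called lower. Of the other hepatocyte markers, Tat (0.32) and Apoa1 (0.08) had positive fitted changes and Serpina1e was at -0.11, none of them called. On the ASK1i diet 3 of the 7 were lower and 1, Tat, was higher, whereas 28.8% of all genes tested were called lower and 30.3% higher. The part of hepatocyte content in the constitutive levels was not tested.

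All 6 ATPases of the base (Psmc1 to Psmc6), which unfold substrates, were lower in KI livers, with changes of -0.38 to -0.24. Psmc6 fell by 0.38 (edgeR adjusted p = 0.000498) and Psmc3 by 0.32 (edgeR adjusted p = 0.000345), and Psmc4 had the smallest change at -0.24 (edgeR adjusted p = 0.0295). The Psmc4 call was lost without KI control library 1 (edgeR adjusted p = 0.262) and also without WT control library 1 or 2P (edgeR adjusted p = 0.0507 and 0.0549).

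Of the 11 non-ATPase subunits, 8 were lower. Psmd11, a scaffold of the lid, had 43.8, 46.3, 47.9, 50.0 and 39.7 CPM in KI livers on control chow, against 57.2 to 83.0 CPM with a median of 72.1 in WT livers. KI and WT did not overlap, and the change of -0.65 (SE 0.12, edgeR adjusted p = 3.17e-05) left 63.7% of the WT level, the lowest share among the 31. Psmd3, another lid subunit, had 60.3, 61.7, 52.7, 59.4 and 44.6 CPM in KI livers, against 62.1 to 94.6 CPM with a median of 81.6 in WT livers. The lowest WT library was just above the highest KI library, and Psmd3 fell by 0.48 (SE 0.09, edgeR adjusted p = 6.77e-05).

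The lid subunit Psmd6 fell by 0.41 (edgeR adjusted p = 7.86e-05), the base scaffolds Psmd2 and Psmd1 by 0.40 and 0.38, the ubiquitin receptor Psmd4 by 0.40, and the lid subunits Psmd12 and Psmd13 by 0.33 and 0.15. The deubiquitinase Psmd14, at -0.10, and the subunits Psmd7, at -0.10, and Psmd8, at -0.13, did not pass. The call of Psmd13 (edgeR adjusted p = 0.0325) was lost without any one of 17 libraries in turn. The L code fit took Psmd11 to -0.20 (edgeR adjusted p = 0.322) and Psmd3 to -0.12 (edgeR adjusted p = 0.531).

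Of the 7 alpha ring genes, which form the gate and dock the caps, 4 were lower, led by Psma3 at -0.29 (edgeR adjusted p = 0.00286) and Psma5 at -0.27 (edgeR adjusted p = 0.00327). Psma6 at -0.20 and Psma2 at -0.16 also passed, but the call of Psma2 was lost without any one of 21 libraries in turn and that of Psma6 without any one of 5. Psma7, Psma4 and Psma1 did not pass, at -0.14, -0.11 and -0.11. Of the 4 structural beta genes, Psmb3 fell by 0.31 (edgeR adjusted p = 0.00369) and Psmb1 by 0.22 (edgeR adjusted p = 0.00484), whereas Psmb2 (-0.12) and Psmb4 (-0.14) did not pass. The median change was -0.32 for the ATPases, -0.38 for the non-ATPase subunits, -0.16 for the alpha ring and -0.18 for the structural beta genes, and the difference between these classes was not tested.

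A few genes stood apart from both patterns. Psmd10 encodes gankyrin, a chaperone of the base ATPases that is absent from the finished proteasome and known as an oncoprotein of liver tumours. Psmd10 (chromosome X, 140948425 to 140956711) had 18.0, 22.9, 23.7, 20.6 and 23.1 CPM in KI livers on control chow, against 8.23 to 10.8 CPM with a median of 9.59 in WT livers. Every KI library was far above every WT library. It rose 2.20-fold (log2 1.14, SE 0.14, edgeR adjusted p = 9.18e-08), the smallest p of the 49 genes in this comparison. It remained called among males alone (1.28, edgeR adjusted p = 4.26e-06) and with the L code (0.94, edgeR adjusted p = 0.0011).

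Psmd9, another chaperone of the base, moved down. It had 28.2, 22.2, 24.5, 21.3 and 22.4 CPM in KI livers, against 31.3 to 44.2 CPM with a median of 38.0 in WT livers, with no overlap. The change was -0.57 (SE 0.12, edgeR adjusted p = 0.000226). Among the core assembly factors Psmg1 and Psmg3 fell by 0.30 and 0.31 (edgeR adjusted p = 0.00923 and 0.0152), and Psmg2 (-0.21), Psmg4 (0.22) and the base chaperone Psmd5 (-0.23) did not pass. Psmg1 was not called among males alone (-0.10, edgeR adjusted p = 0.475), nor Psmg3 with the L code (-0.29, edgeR adjusted p = 0.16). Of the 7 assembly chaperones, 1 was thus higher and 3 lower, whereas 27.8% of all genes tested were called higher and 28.9% lower. With 7 genes, these counts are not read as a result about the class.

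**Figure D4:**
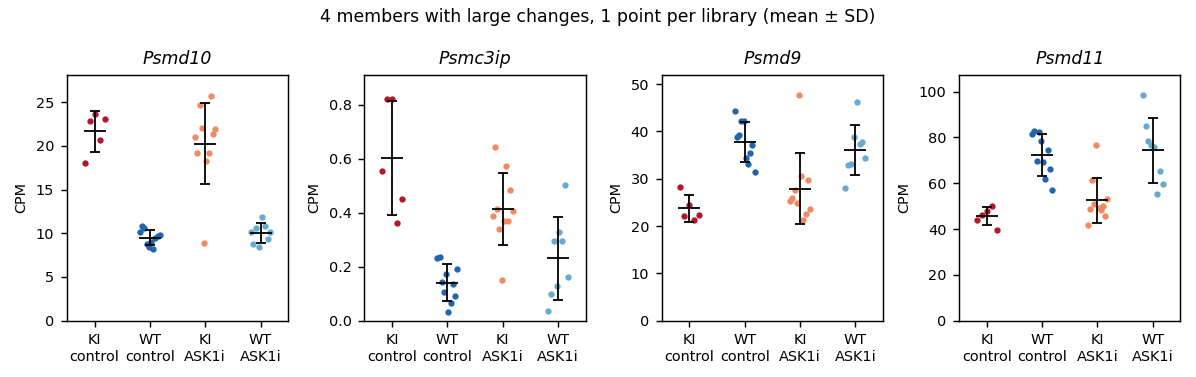
CPM of Psmd10, Psmc3ip, Psmd9 and Psmd11, with KI left of WT on each diet, 1 point per library and bars for the mean ± SD. Psmd10 and Psmc3ip are higher and Psmd9 and Psmd11 lower in the KI libraries of control chow. KI library 5 on the ASK1i diet lies among the WT libraries for Psmd10, Psmc3ip and Psmd11, and just above all of them for Psmd9.

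The remaining regulators were lower. Psme4 encodes a single-chain activator of the core linked to acetylated histones. It had 68.1, 82.6, 79.7, 89.9 and 96.4 CPM in KI livers, against 108 to 147 CPM with a median of 121 in WT livers. All KI libraries were below all WT libraries, and the change was -0.61 (SE 0.11, edgeR adjusted p = 2.27e-05). Psmf1, an inhibitor of the core in vitro, fell by 0.37 (edgeR adjusted p = 0.00145), and Psme3, the nuclear relative of Psme1 and Psme2, fell by 0.28 (edgeR adjusted p = 0.00268). The Psmf1 call was lost with the L code (-0.22, edgeR adjusted p = 0.272) and among males alone (-0.33, edgeR adjusted p = 0.0692), as was that of Psme3 (-0.23, edgeR adjusted p = 0.114, and -0.19, edgeR adjusted p = 0.0738).

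Psmc3ip takes its name from binding Psmc3 but is a cofactor of meiotic recombination and no proteasome subunit. It was scarce, with 0.553, 0.820, 0.820, 0.362 and 0.449 CPM in KI livers, against 0.0314 to 0.236 CPM with a median of 0.139 in WT livers. No library overlapped, and it rose 4.28-fold (log2 2.10, SE 0.40, edgeR adjusted p = 5.83e-05). Psme2b, for which the table gives the same gene identifier as Psme2 and whose reads may be shared with it, had 2.96, 4.27, 3.69, 3.31 and 3.32 CPM in KI livers, against 1.86 to 2.99 CPM with a median of 2.43 in WT livers. A single KI library, the first, lay just inside the WT range, and the change of 0.46 (SE 0.18, edgeR adjusted p = 0.0274) was lost without KI control library 2 (edgeR adjusted p = 0.0862) or 3 (edgeR adjusted p = 0.051), with the L code (edgeR adjusted p = 0.719) and among males alone (edgeR adjusted p = 0.318). Psma8, a testis subunit of the alpha ring, was at 0.40 (SE 0.37) and did not pass (edgeR adjusted p = 0.377).

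On the ASK1i diet constitutive genes were again lower in KI livers, and fewer immunoproteasome genes were called higher. Of the 31 constitutive genes 22 were lower in KI than in WT livers, whereas 28.8% of all genes tested were called lower, and of the 5 immunoproteasome genes 1 was higher, whereas 30.3% of all genes were called higher. The medians were -0.19 for the constitutive genes, 0.19 for the immunoproteasome genes and 0.01 for all genes tested. All 31 constitutive fitted changes were negative, ranging from -0.46 to -0.02. No constitutive gene had every KI library below every WT library, whereas 3.91% of all genes did, and no immunoproteasome gene had every KI library above every WT library, whereas 2.36% of all genes did. Without KI library 5, 3 constitutive genes (Psmb7, Psmc6 and Psmd6) had every KI library below every WT library, whereas 12% of all genes did, and still no immunoproteasome gene had every KI library above, whereas 13% of all genes did. The constitutive genes lower on both diets numbered 18, which is 81.8% of those lower on the ASK1i diet and 78.3% of those lower on control chow. The matching overlap over all genes is not given, so this overlap is not read as particular to these genes. In male libraries alone 14 constitutive genes were lower on the ASK1i diet, and among the numbered titles alone 8, again without shares over all genes.

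Psmb8 ranged from 19.4 to 54.3 CPM with a median of 35.1 in the 10 KI livers on the ASK1i diet, against 21.9 to 33.5 CPM with a median of 26.9 in the 8 WT livers. The groups overlapped, with 5 KI libraries above every WT library and 1 below. The change of 0.42 (SE 0.15, 1.34-fold, edgeR adjusted p = 0.0196) was lost without KI ASK1i library 1 (edgeR adjusted p = 0.0542), among males alone (0.50, edgeR adjusted p = 0.079) and with replicate number as a block (0.34, edgeR adjusted p = 0.066). Psmb10 ranged from 19.0 to 56.2 CPM with a median of 39.2 in KI livers, against 23.7 to 50.1 CPM with a median of 29.3 in WT livers. Its overlapping groups differed by 0.24 (SE 0.15) and did not pass (edgeR adjusted p = 0.164).

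Psme1 ranged from 49.3 to 96.8 CPM with a median of 78.2 in KI livers, against 59.5 to 81.1 CPM with a median of 67.6 in WT livers, with a change of 0.19 at the threshold (SE 0.08, edgeR adjusted p = 0.0527). Psme2, at -0.09 (edgeR adjusted p = 0.431), and Psmb9, at -0.07 (edgeR adjusted p = 0.74), did not pass. Without KI library 5, which carries the lowest Psmb8, Psme1 and Psmd10 of its group, 3 immunoproteasome genes were called higher, whereas 31.8% of all genes were, and 24 constitutive genes lower, whereas 31.4% of all genes were. Psmb8 was then at 0.49 (edgeR adjusted p = 0.00321), Psme1 at 0.25 (edgeR adjusted p = 0.00292) and Psmb10 at 0.32 (edgeR adjusted p = 0.0477).

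The 3 KI libraries of this diet with the lowest Psmb8 (libraries 5, 6 and 4P) were also the 3 with the lowest Ptprc, at 16.6, 36.2 and 36.7 CPM. Of these, library 5 is the one with a WT-like profile. Library 1P had the highest Ptprc of the 5 KI females of this diet, at 81.9 CPM. Its Psmb8 share of the sum with Psmb5, at 23.3%, lay within the WT range of 14.0% to 23.9%. Summed leukocyte markers ranged from 322 to 4621 CPM in KI and from 267 to 393 CPM in WT livers on the ASK1i diet. The summed immunoproteasome level ranged from 141 to 299 CPM in KI and from 179 to 263 CPM in WT livers. With library 5 included, both sums spread most widely in the KI group of this diet. That library held the lowest KI value of both sums. The KI males, which do not include it, ranged from 210 to 299 CPM in the immunoproteasome sum. The part of leukocytes was not tested.

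Among the standard catalytic genes, Psmb7 ranged from 75.8 to 110 CPM with a median of 81.4 in KI livers on the ASK1i diet, against 101 to 135 CPM with a median of 112 in WT livers. A single KI library, the library 5 described above, reached the WT range, and Psmb7 fell by 0.45 (SE 0.07, edgeR adjusted p = 9.39e-07). Psmb6 fell by 0.22 (SE 0.06, edgeR adjusted p = 0.00232), and Psmb5 was at -0.09 (edgeR adjusted p = 0.27). Psmd3 and Psmd11 fell by 0.46 each (edgeR adjusted p = 4.81e-06 and 0.000133), and Psme4 by 0.41 (edgeR adjusted p = 0.000158). Without library 5 the changes were -0.52 for Psmb7, -0.26 for Psmb6, -0.13 for Psmb5, -0.53 for Psmd3, -0.53 for Psmd11 and -0.47 for Psme4, and the same 5 of these 6 were called. Psmb6 was not called among males alone (-0.15, edgeR adjusted p = 0.0795).

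Psmd10 ranged from 8.93 to 25.7 CPM with a median of 21.2 in KI livers on the ASK1i diet, against 8.41 to 11.8 CPM with a median of 10.2 in WT livers. Of the 10 KI libraries 9 were above every WT library, and the exception was again library 5. The rise of 0.99 (SE 0.12, 1.99-fold, edgeR adjusted p = 4.42e-08) was 1.09 without that library. Psmd9 fell by 0.35 (edgeR adjusted p = 0.0035). Psmc3ip was higher by 0.80 (SE 0.34, edgeR adjusted p = 0.0423), a call lost without any one of 7 libraries in turn. With the L code it was at 0.52 (edgeR adjusted p = 0.25), and with replicate number as a block at 0.72 (edgeR adjusted p = 0.157). Without library 5 Psmd9 was at -0.45 and Psmc3ip at 0.92, both called.

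The L codes L1 and L7 held both KI and WT libraries of the ASK1i diet. Within L1, with 4 KI and 2 WT libraries, the mean level was lower in KI for 30 of the 31 constitutive genes and higher for 3 of the 5 immunoproteasome genes, and Psmd10 was higher by 1.18 on the log2 scale. Within L7, with 1 KI and 2 WT libraries, it was lower in KI for 31 of 31 and higher for 5 of 5, and Psmd10 was higher by 0.89. With the L code in the model Psmb8 was called at 0.46 (edgeR adjusted p = 0.0269) and Psme1 at 0.25 (edgeR adjusted p = 0.0283). These values within codes rest on few libraries, and in L7 the 1 KI library sets every sign. No share over all genes is given for them, and the part of the code was not tested.

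The ASK1i diet was then set against control chow within each genotype. In KI livers no proteasome gene was called by edgeR, whereas 0.0536% of all genes were, and DESeq2 called 1, Psmb5. Of the 49 genes 12 (24.5%) had an unadjusted edgeR p under 0.05 in KI livers, whereas 10.3% of all genes did, and 7 did so without KI library 5. In WT livers none was called by edgeR, whereas 1.4% of all genes were, and DESeq2 called 1, the alpha ring gene Psma4. Of the 49 genes 8 (16.3%) had an unadjusted edgeR p under 0.05 in WT livers, whereas 13.9% of all genes did. Each diet comparison shares its control chow libraries with the genotype comparison above, so their values are set side by side only.

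In KI livers the 3 smallest p-values belonged to Psmb5, Psmd13 and Psmb6. Psmb5 ranged from 53.5 to 80.0 CPM with a median of 66.1 on the ASK1i diet, against 45.5, 51.8, 59.9, 52.8 and 50.9 CPM on control chow. Of the 10 libraries on the ASK1i diet 7 were above every control library, the difference was 0.33 (SE 0.08, unadjusted p = 0.0004), and it did not pass over all genes (edgeR adjusted p = 0.249, DESeq2 adjusted p = 0.0487). Without KI library 5 it was 0.30 (edgeR adjusted p = 0.217). Psmd13 was at 0.16 (SE 0.06, edgeR adjusted p = 0.429) and Psmb6 at 0.18 (SE 0.07, edgeR adjusted p = 0.444).

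In WT livers the smallest p-values were those of Psma4 at 0.17 (SE 0.05, edgeR adjusted p = 0.111, DESeq2 adjusted p = 0.0472), Psma1 at 0.22 (SE 0.07, edgeR adjusted p = 0.144) and Psme2 at 0.24 (SE 0.09, edgeR adjusted p = 0.22). Fitted differences for the 31 constitutive genes were positive in 31 in KI livers (median 0.14) and in 29 in WT livers (median 0.08). Those of the 5 immunoproteasome genes were negative in 5 in KI livers (median -0.20) and positive in 4 in WT livers (median 0.18). The median over all genes tested was 0.03 in KI and -0.0017 in WT livers. Fitted differences were positive in 8355 of the 14934 genes tested in KI livers and in 7395 in WT livers. The KI values include library 5. That library lay nearer to the WT mean than to the other KI libraries for 31 of the 31 constitutive and 3 of the 5 immunoproteasome genes. Counts of signs and medians without it are not given here.

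**Figure D5:**
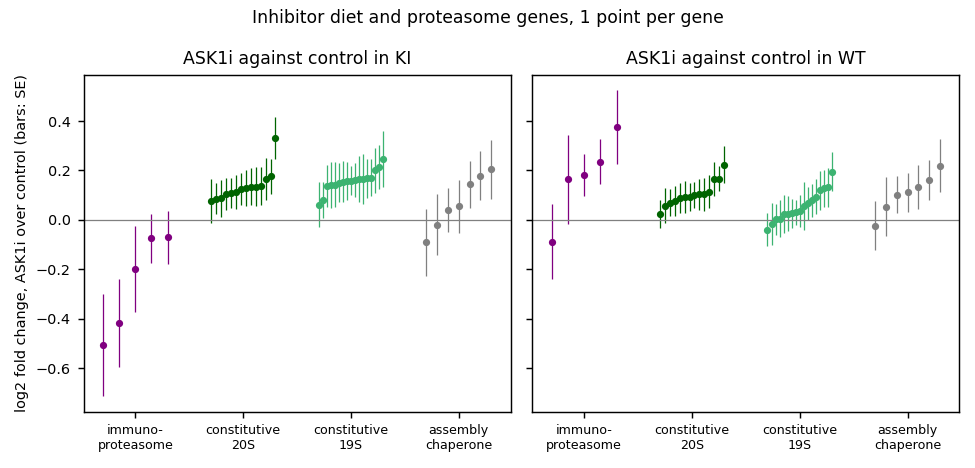
Log2 fold change for the ASK1i diet against control chow, in KI and in WT livers, with 1 point per immunoproteasome, constitutive or assembly chaperone gene and bars of 1 standard error. No gene passed adjusted p under 0.05 in edgeR, and the fitted immunoproteasome differences lie below 0 in KI livers.

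Whether the diet difference depended on genotype was tested as the interaction. No proteasome gene was called by edgeR or DESeq2, and the share of all genes called by edgeR was 0%. Of the 49 genes 5 (10.2%) had an unadjusted edgeR p under 0.05, whereas 8.38% of all genes did. These included 3 of the 5 immunoproteasome genes and 0 of the 31 constitutive genes. All 5 immunoproteasome genes had negative fitted interactions, from -0.67 to -0.25 with a median of -0.33. The smallest p-values were those of Psmb10 at -0.58 (SE 0.23, unadjusted p = 0.0183, edgeR adjusted p = 0.54), Psmc3ip at -1.30 (SE 0.52, edgeR adjusted p = 0.54) and Psmb9 at -0.67 (SE 0.27, edgeR adjusted p = 0.552). Without KI library 5 these were -0.52, -1.23 and -0.63, and none was called. A smaller immunoproteasome difference between genotypes on the ASK1i diet than on control chow was therefore not shown by these libraries.

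Genes that act with the proteasome were read from lists of neighbours in the pathway. Ifng, which encodes interferon gamma itself, is in the list of 9 genes of that axis but was too scarce to be tested. It had at most 14 counts per library and 0 counts in 7 libraries. Their counts stand against 27.8% higher and 28.9% lower of all genes tested on control chow, and 30.3% higher and 28.8% lower on the ASK1i diet. Of the 8 tested genes of the interferon gamma axis, all 8 were higher in KI livers on control chow (median 0.63), among them the receptor chain Ifngr1 at 1.52 (edgeR adjusted p = 2.74e-08), the myeloid transcription factor Irf8 at 1.84 (edgeR adjusted p = 3.44e-08) and the kinase Jak1 at 0.36 (edgeR adjusted p = 3.44e-05). With the ASK1 inhibitor 5 of the 8 were higher in KI than in WT livers and none lower, with Ifngr1 at 1.48 and Irf8 at 1.54, and 6 of the 8 were higher without KI library 5. Both Irf8 and Ifngr1 are abundant in leukocytes, whose markers were higher in the same libraries.

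MHC class I peptide loading genes, the users of proteasome products, were higher for 4 of 9 and lower for none on control chow. H2-D1, an MHC class I heavy chain, rose by 0.73 (edgeR adjusted p = 3.91e-07), Tapbp, which bridges the peptide transporter to MHC class I, by 0.96 (edgeR adjusted p = 4.49e-06), and Tap1, a chain of that transporter, by 0.76 (edgeR adjusted p = 0.00214). On the ASK1i diet 4 of 9 were higher and 2 lower, with H2-D1 at 0.66 (edgeR adjusted p = 1.07e-07), Tapbp at 0.53 (edgeR adjusted p = 0.000881) and Tap1 at 0.26 (edgeR adjusted p = 0.201). The 2 lower genes, named after their values were seen, were B2m, the MHC class I light chain, at -0.42 (edgeR adjusted p = 2.12e-05) and the peptide trimming enzyme Erap1 at -0.23 (edgeR adjusted p = 0.00781). For B2m all 10 KI libraries, at 820 to 1084 CPM, lay below all 8 WT libraries, at 1106 to 1498 CPM. Without KI library 5, 5 of the 9 were higher and the same 2 lower.

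Constitutive proteasome genes are induced together by the transcription factor Nfe2l1, which Vcp extracts from the endoplasmic reticulum, Ngly1 deglycosylates and Ddi2 cleaves. Of the 5 regulators tested, none was higher and 3 were lower in KI livers on control chow. These were Ngly1 at -0.59 (edgeR adjusted p = 2.53e-06), Ddi2 at -0.60 (edgeR adjusted p = 0.0012) and Vcp at -0.37 (edgeR adjusted p = 0.00247), while Nfe2l1 itself was at -0.15 and did not pass. With the inhibitor in the diet Ngly1 fell by 0.48 (edgeR adjusted p = 1.72e-06) and Vcp by 0.37 (edgeR adjusted p = 0.000252), and Ddi2 was at -0.26 (edgeR adjusted p = 0.0728), so 2 of the 5 were lower and none higher, with or without KI library 5.

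Partners of the proteasome outside the naming pattern included 5 lower and 1 higher of 9 genes on control chow. The ubiquitin receptor Adrm1 fell by 0.53 (edgeR adjusted p = 0.000183), the ubiquitin ligase Ube3c by 0.35 (edgeR adjusted p = 0.00221), and AI314180, the table's name for the proteasome adaptor Ecpas, by 0.32 (edgeR adjusted p = 0.00141). The higher gene, named after its values were seen, was Shfm1, the table's name for the lid subunit Sem1, at 0.28 (edgeR adjusted p = 0.0097). Under ASK1 inhibition 7 of the 9 were lower and 1 higher, with Adrm1 at -0.42 (edgeR adjusted p = 0.00017), Ube3c at -0.27 (edgeR adjusted p = 0.00321) and AI314180 at -0.23 (edgeR adjusted p = 0.00354). Shfm1 was again the higher one, at 0.24 (edgeR adjusted p = 0.00958), and without KI library 5, 8 were lower and 1 higher.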

How the data were processed

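Per the labels' protocols, RNA of fresh frozen liver was isolated with a Qiagen miRNeasy kit and polyadenylated RNA was sequenced from TruSeq Stranded mRNA libraries. The submitters' processing notes list CASAVA 1.8.2, STAR 2.4, RSEM 1.2.14 and mm10. The authors deposited RSEM expected counts for each gene, with no normalisation; RSEM divides reads that match several genes, so near-copies such as Psme2 and Psme2b are uncertain one by one. How strand was handled in counting is not given in the sources used here.

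Groups, sexes, title sets and L codes came from the labels, and columns were assigned to samples through their titles. The rounded counts were analysed with edgeR 4.0.16 in R 4.3.3: TMM scaling, filterByExpr on the groups, and the quasi-likelihood F test in its robust form, in 1 model of all 33 libraries with terms for group, sex and title set (numbered, or numbered with a P). The filter left 14934 genes, over which p-values were adjusted by the Benjamini-Hochberg method; tests were two-sided with a threshold of 0.05. The prior count behind log2 fold changes was 0.125, and fold and percent of WT derive from them. CPM per kilobase uses transcript lengths matched for 49 of 49 genes. Promoter windows of RefSeq (GRCm38.p6) were found for 41 of the 49. The fit was tested on simulated data.

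Alternatives were DESeq2 1.42.0, RLE size factors, no filter beyond a total of 10 counts, no covariates, the L code or a replicate block in place of the title set, numbered titles alone and leaving out each library; male libraries alone were added after seeing the data. Named genes were the immunoproteasome and standard catalytic genes, every constitutive gene called lower on control chow, and those with the smallest p of each other class, list or comparison; further members are given by counts or values. The members and lists were chosen with earlier results of these data known. Over 128 pairs of libraries of 1 group the lowest chi-square per gene was 23.6, so none was a repeat sequencing of the same library. This measure cannot tell libraries made from the same mouse from those of separate mice.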

Additional observations from a re-analysis of the deposited data

Results flagged for a closer look

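Within the 4 groups of 5, 8, 10 and 10 libraries, 12 of 148 combinations of gene and group, over 37 proteasome genes, held a library that stood far from the others; chance gives about 1 in 20. Of the 12, 8 were KI library 5 on the ASK1i diet, the library placed among the WT libraries by its whole profile. It had the lowest Psme1 (49.3 CPM, the others 72.1 to 96.8), the lowest Psmd10 (8.93 CPM, the others 18.3 to 25.7) and the lowest Psmc3ip (0.152 CPM, the others 0.339 to 0.644) of its group. It had the highest Psmb7 (110.0 CPM, the others 75.8 to 84.9), Psmc3 (109.5 CPM, the others 76.5 to 91.7), Psmd9 (47.7 CPM, the others 21.3 to 30.5), Psmd6 (67.5 CPM, the others 43.5 to 51.5) and Psmd4 (101.5 CPM, the others 54.9 to 70.9).

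The remaining 4 were spread over other libraries. KI library 3 on control chow had the highest Psmb1 of its group (91.7 CPM, the others 81.5 to 84.3). WT library 7 on control chow had the lowest Psmd12 (59.2 CPM, the others 68.8 to 79.9) and the lowest Psma6 (79.5 CPM, the others 87.9 to 97.5), and WT library 1P the lowest Psmf1 (22.4 CPM, the others 28.8 to 37.3).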

How the results depend on the processing

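For KI against WT on control chow, constitutive genes called lower numbered 23 in the reported fit, 5 with the L code, 14 among numbered titles alone and 14 among males alone, and 18 to 23 with 1 library left out, with 18 without KI control library 1. Immunoproteasome genes called higher numbered 4 in the reported fit, 0 with the L code and 1 among males alone, and 3 to 5 with 1 library left out, with 3 without KI control library 2 or 3. Psmc4 turned to 0.036 with the L code and Psmd13 to 0.014 among males alone. On the ASK1i diet, constitutive genes called lower numbered 22, against 8 among numbered titles alone and 14 among males alone, and 16 to 24 with 1 library left out, with 16 without KI library 4. Immunoproteasome genes called higher there numbered 1, against 2 with RLE size factors, DESeq2, no filter or the L code, 0 under the replicate block, and 0 to 3 with 1 library left out, with 0 without KI library 1 and 3 without WT library 7 or KI library 5. The cause of these shifts was not tested, beyond the fewer samples of the alternatives that leave libraries out. Shares of all genes called under these alternatives are not given beside the counts. For ASK1i against control, DESeq2 called 1 constitutive gene higher in WT and 1 in KI livers; leaving out 1 library gave 0 to 0 in both. Of the 432 values of named genes under the other settings, 362 with control chow and 395 with the inhibitor diet kept the side of the threshold. Calls lost numbered 67 and 27, calls gained 1 and 10, and calls that turned in direction 2 and 0. Turns of sign in genes not called were not counted. Examples are Psme2 on control chow, at -0.20 with the L code, and Psmb9 on the ASK1i diet, at 0.15 among males alone.

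Replicate numbers did not pair the libraries: 14 of 37 same-numbered pairs correlated above 0.1 in their deviations from the group means (range -0.21 to 0.36). With the number as a block 22 constitutive genes were lower and 4 immunoproteasome genes higher on control chow, and 22 were lower and 0 immunoproteasome genes higher on the ASK1i diet, where the call of Psmb8 was lost (0.34, edgeR adjusted p = 0.066). The small and unbalanced KI control group, the L codes and the absence of a cell count limit what the genotype comparisons resolve, and Psmc3ip, at under 1 CPM, rests on few reads.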
